A study of Mus musculus with 16 samples.

Results

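Polycomb repressive complex 2 (PRC2) is the enzyme complex that methylates lysine 27 of histone H3, and the expression of the genes for 10 of its subunits was followed over 8 histone transgenes in mouse C3H10T1/2 cells. The 10 genes are the rows of the deposited table of 20325 genes whose symbols are Ezh2, Ezh1, Eed, Suz12, Rbbp4, Rbbp7, Mtf2, Phf1, Phf19 and Jarid2. All 10 were found, each as 1 row, and all 10 passed the minimum mean value of 10 that left 12670 genes to be tested. C3H10T1/2 is an established mouse line of mesenchymal stem cell type. The cells were transduced for 2 days with a lentivirus that carried a histone H3 gene and were then selected for 4 days with puromycin at 1.5 µg/ml, and polyadenylated RNA was sequenced. The transgenes were H3.3 G34W, H3.3 G34R, H3.3 K27R, H3.3 with G34W and K27R in 1 molecule, H3.3 with G34W and K36R in 1 molecule, H3.1 G34W, H3.1 WT and H3.3 WT. Each change is written as the wild-type residue, its position and the new residue. Every group, the wild-type ones included, therefore overexpressed a transgene in cells that the labels describe as otherwise the same line, whose own H3 genes were not stated to be removed. Each group held 2 libraries, 16 in all. Nothing in the labels says that the 2 came from separate cultures, so the tests measure the spread between libraries, which may be technical. The question of the series is what G34 changes of H3.3 do to transcription in this line.

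PRC2 has a core of 1 catalytic subunit, EZH2 or its close relative EZH1, with SUZ12, EED and a histone-binding protein, RBBP4 or RBBP7. EED binds the methylated product and stimulates the enzyme, and SUZ12 is the scaffold on which the accessory subunits dock. PHF1, MTF2 and PHF19 are the Polycomb-like proteins, which bind DNA and methylated histone tails and bring the complex to its sites, while JARID2 belongs to a different form of the complex. In most tissues EZH2 predominates in dividing cells and EZH1 in cells that have left the cycle. The K27R change removes the lysine that PRC2 methylates, and K36R removes the one whose methylation hinders PRC2 on the same tail.

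The promoter sequences of the 4 genes whose RNA varied most between the groups in the account that follows are given first, since these genes moved in different directions. They are the 250 bases before the start of the gene in RefSeq, build GRCm38.p6, written 5′ to 3′ on the gene's own strand, with capitals for matches to E2F-type and CCAAT motifs, elements found in many promoters of cell-cycle genes. Ezh2 lies on the minus strand at chr6:47595031-47595280, Ezh1 on the minus strand at chr11:101226464-101226713, Suz12 on the plus strand at chr11:79992856-79993105 and Phf19 on the minus strand at chr2:34913977-34914226.
Ezh2: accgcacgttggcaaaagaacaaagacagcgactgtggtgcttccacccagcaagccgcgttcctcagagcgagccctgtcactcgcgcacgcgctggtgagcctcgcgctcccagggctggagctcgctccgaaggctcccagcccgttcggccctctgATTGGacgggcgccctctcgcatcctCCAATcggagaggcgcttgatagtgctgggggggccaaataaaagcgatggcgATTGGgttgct
Ezh1: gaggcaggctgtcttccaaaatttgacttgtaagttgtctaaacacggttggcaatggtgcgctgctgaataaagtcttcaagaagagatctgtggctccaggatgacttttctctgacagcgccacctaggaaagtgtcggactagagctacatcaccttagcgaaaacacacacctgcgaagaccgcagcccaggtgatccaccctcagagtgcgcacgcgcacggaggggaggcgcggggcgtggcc
Suz12: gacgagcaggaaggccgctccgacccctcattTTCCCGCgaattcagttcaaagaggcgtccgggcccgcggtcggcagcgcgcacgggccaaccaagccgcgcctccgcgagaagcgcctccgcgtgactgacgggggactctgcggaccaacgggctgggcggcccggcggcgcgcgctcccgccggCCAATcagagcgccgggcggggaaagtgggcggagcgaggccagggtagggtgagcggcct
Phf19: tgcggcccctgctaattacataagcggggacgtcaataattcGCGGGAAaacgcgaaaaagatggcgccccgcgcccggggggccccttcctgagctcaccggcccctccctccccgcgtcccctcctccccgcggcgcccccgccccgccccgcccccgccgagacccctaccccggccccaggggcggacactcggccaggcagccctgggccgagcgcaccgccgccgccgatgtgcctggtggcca
The motifs searched on both strands were TTGGCGC or TTGCCGC or TTCGCGC or TTCCCGC for E2F, CCAAT alone, and TTTGAA or TTCGAA for the CHR element. Matches of different motifs were allowed to overlap. RefSeq windows were found for 10 of 10 genes, 12 windows in all because Mtf2 and Jarid2 had a pair each. The Ezh2 window held 3 CCAAT matches, beginning 90, 64 and 11 bases before the start, and no E2F-type match. The Suz12 window held 1 E2F-type match at 218 bases and 1 CCAAT match at 61 bases, besides a TTTGAA match at 203 bases that is not capitalised. The Phf19 window held 1 E2F-type match, at 208 bases, and the Ezh1 window held none of the motifs. Over the 12 windows, CCAAT was present in 6 and an E2F-type match in 3 (Suz12, Phf19 and Rbbp4). Of 32851 RefSeq windows of the same length, 33.8% held CCAAT, 7.89% an E2F-type match and 17.1% a CHR match. A match describes the letters only.

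Estimated depth was 26.0 to 49.1 M reads per library, with 14275 to 15261 genes above 0. It was 34.8 to 49.1 M in the libraries of H3.3 G34W K36R, H3.1 G34W and H3.1 WT and 26.0 to 33.8 M in the others. The values are RSEM expected counts scaled by the authors with a median normalization, called normalized counts here, and 3 reads corresponded to 2.27 to 3.74 normalized counts. This floor covers counting error only. The libraries of a group differed to unequal degrees. Those of H3.3 WT differed by less than sampling noise over 2745 genes with whole reads (chi-square test, p = 0.938) and were counted as 1 sample, although over all 12435 genes they differed by more (p = 9.7e-64). Those of H3.3 G34W, H3.1 G34W and H3.1 WT stood apart from each other. Over genes with whole reads, their chi-square per degree of freedom was 47.8, 41.8 and 32.4, against 1.16 to 1.39 in the remaining mutant groups. Over all genes it was 265, 236 and 225, against 1.75 to 5.78. All 12 mesenchymal markers checked, among them Col1a1, Vim and Pdgfra, were above 0 in every library, and their sum was 332111 to 635529 normalized counts. The sums were 22.2 to 306 for 6 epithelial markers and 28.5 to 71.0 for 6 haematopoietic ones, with Cd3e at 0 throughout. The 5 endothelial markers summed to 63.5 to 3117, of which Tek alone made 59.6 to 3037. H3f3b, an endogenous gene for H3.3, averaged 53513 ± 1152 (SD, n = 2) with G34R and 25528 (2 libraries, 1 sample) with H3.3 WT, and was called higher with G34R (log2 fold change 1.07, limma). Whether reads of the transgene were counted under H3f3a or H3f3b was not tested, so these genes do not check the labels.

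Over the 8 groups, 7 of the 10 subunit genes differed in the moderated F test of limma (Benjamini-Hochberg adjusted over all genes, threshold 0.05), where 66.6% of all tested genes did. They were Suz12 (adjusted p = 1.17e-04), Phf19 (1.41e-04), Ezh2 (0.00109), Ezh1 (0.00451), Phf1 (0.00806), Rbbp7 (0.0101) and Mtf2 (0.0171). Jarid2 and Eed, both at an adjusted p of 0.0579, and Rbbp4, at 0.175, were not called. Counting each of the 5 most similar pairs of libraries as 1 sample ends the F test calls of all but Suz12 and Phf19 and, of the 16 fold changes called below, all but that of Phf19 in H3.1 WT against H3.3 WT. Calls over all genes also became far fewer in that fit. The F test then called 8.13% of all genes and H3.1 WT against H3.3 WT 4.9%, while G34W K27R against K27R called 0%. Phf19 spanned the widest range of the 10, 30.8 to 443 normalized counts (40 to 457 reads), and Rbbp4 the narrowest, 7160 to 12049. Per kilobase of the longest annotated protein-coding transcript, Rbbp7 and Rbbp4 were the most abundant of the 10 genes in every group, at 4946 and 1922 mean normalized counts per kb in H3.3 WT. In H3.3 WT, Ezh2 was at 724, Ezh1 at 603, Eed at 592, Suz12 at 581, Phf1 at 393, Mtf2 at 234, Phf19 at 116 and Jarid2 at 95.9 per kb. In bulk RNA, fewer cells that express a gene and less RNA per cell cannot be told apart. RSEM divides reads that fit more than 1 gene, so the values of the related pairs Rbbp4 and Rbbp7, and Ezh1 and Ezh2, are uncertain where their sequences are alike.

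**Figure D1:**
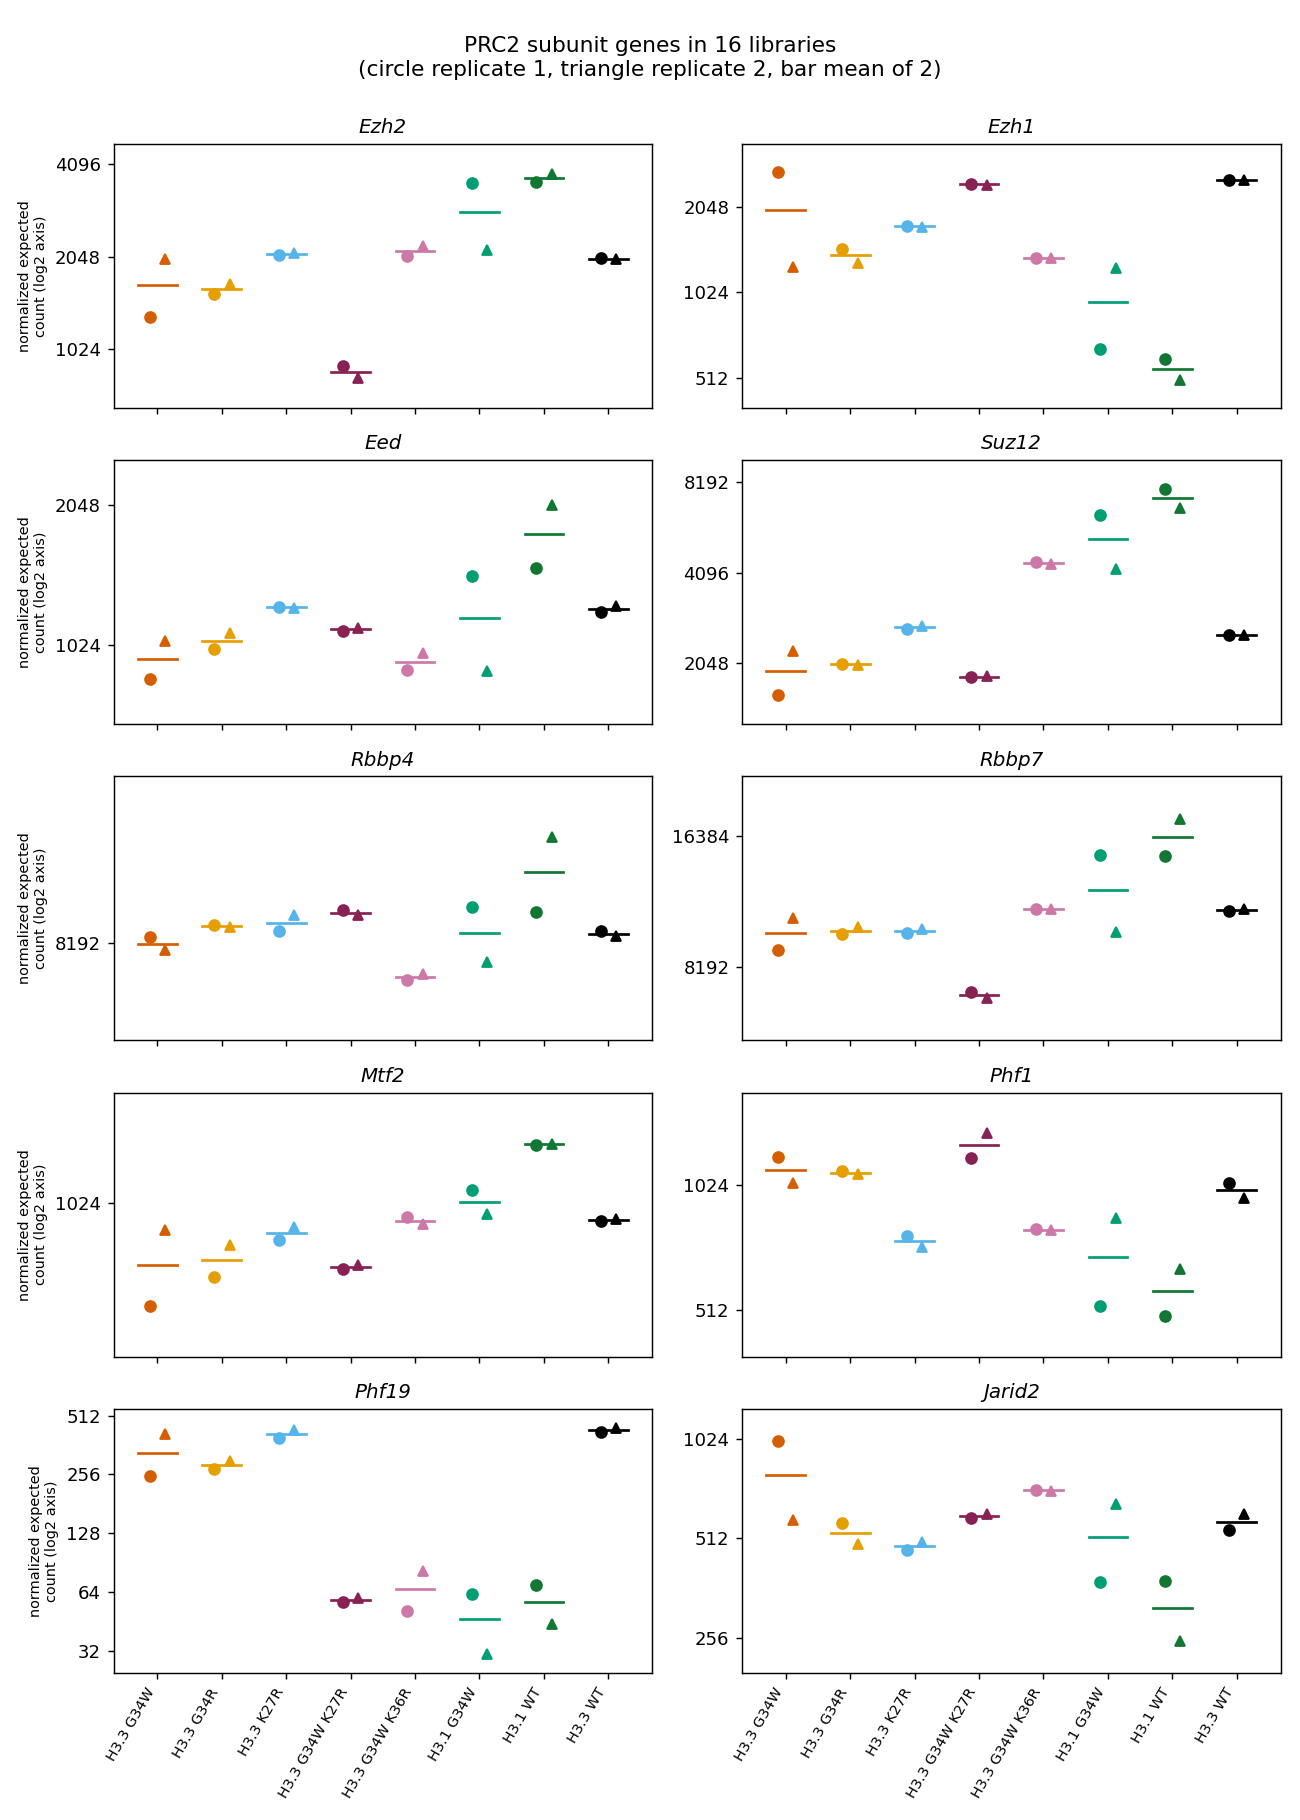
Normalized counts of the 10 PRC2 subunit genes in each of the 16 libraries, on a log axis, with 1 panel for each gene and the transgene groups along the horizontal axis. Points are libraries. Phf19 is at 30.8 to 82.0 in the 8 libraries of H3.3 G34W K27R, H3.3 G34W K36R, H3.1 G34W and H3.1 WT and at 250 to 443 in the other 8.

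Among the catalytic subunits, Ezh2 RNA was lowest with G34W K27R and highest with H3.1 WT. Ezh2 had 902 and 822 normalized counts with H3.3 G34W K27R, 1304 and 2005 with H3.3 G34W, 2078 and 2098 with H3.3 K27R, and 2029 and 2006 with H3.3 WT. It had 1551 and 1670 with H3.3 G34R and 2055 and 2214 with H3.3 G34W K36R. In the H3.1 groups it had 3562 and 2144 with H3.1 G34W, and 3582 and 3812 with H3.1 WT. Both G34W K27R libraries lay below all the others, both H3.1 WT libraries lay above all the others, and the groups in between overlapped at several steps: H3.1 G34W with H3.3 G34W K36R, that double mutant with H3.3 K27R, and H3.3 G34W with H3.3 G34R. Ezh2 fell with G34W K27R against H3.3 WT (log2 fold change -1.23 ± 0.29 SE, limma adjusted p = 0.0189), against G34W alone (-0.91 ± 0.24, adjusted p = 0.0216) and against K27R alone (-1.28 ± 0.24, adjusted p = 0.00367). It was higher with H3.1 WT than with H3.3 WT (0.87 ± 0.29, adjusted p = 0.0422). The call against H3.3 WT was lost without either of the G34W K27R libraries (adjusted p up to 0.0949), and the call against G34W without replicate 2 of G34W or either of the G34W K27R libraries (up to 0.131). The call between H3.1 WT and H3.3 WT was lost in 10 of the 16 fits that left out 1 library, namely without either library of G34R, K27R, G34W K27R, G34W K36R or H3.1 WT (up to 0.0996).

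Ezh1, the catalytic subunit that is typical of resting cells, showed a different order. Ezh1 had 597 and 503 normalized counts with H3.1 WT, against 2533 and 2539 with H3.3 WT. It had 649 and 1243 with H3.1 G34W, 1357 and 1352 with H3.3 G34W K36R, and 1456 and 1303 with H3.3 G34R. It had 1756 and 1737 with H3.3 K27R, 2717 and 1254 with H3.3 G34W, and 2461 and 2437 with H3.3 G34W K27R. The H3.1 libraries were thus the lowest 4, and the G34W libraries were the highest and the lowest of the H3.3 libraries. All H3.1 libraries are also among the most deeply sequenced, and the part of depth was not tested. Ezh1 was lower with H3.1 WT than with H3.3 WT (log2 fold change -2.21 ± 0.42 SE, limma adjusted p = 0.00353), a call kept in all 16 fits that left out 1 library. No other comparison called it. With G34W it changed by -0.46 against H3.3 WT with a 95% confidence interval from -1.39 to 0.48, and without replicate 2 of G34W the value was 0.10, so 1 library set its sign. Against the same H3.3 WT libraries, Ezh1 changed by -0.88 with G34R (interval -1.82 to 0.06), by -0.54 with K27R, by -0.90 with G34W K36R (-1.84 to 0.03) and by -0.05 with G34W K27R (-0.99 to 0.89).

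As a consequence of these levels, the ratio of Ezh2 to Ezh1 normalized counts ran over a wide range. It was 0.366 and 0.337 in the G34W K27R libraries, 1.18 and 1.21 with K27R, 0.480 and 1.60 with G34W, and 0.801 and 0.790 with H3.3 WT. It was 1.07 and 1.28 with G34R and 1.51 and 1.64 with G34W K36R. In the H3.1 libraries it was 5.49 and 1.72 with H3.1 G34W, and 6.0 and 7.57 with H3.1 WT. The G34W K27R libraries were the lowest of all and the H3.1 libraries the highest 4, while the G34W pair spanned most of the range of the other H3.3 groups. The ratio is not corrected for transcript length and is a description of each library.

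**Figure D2:**
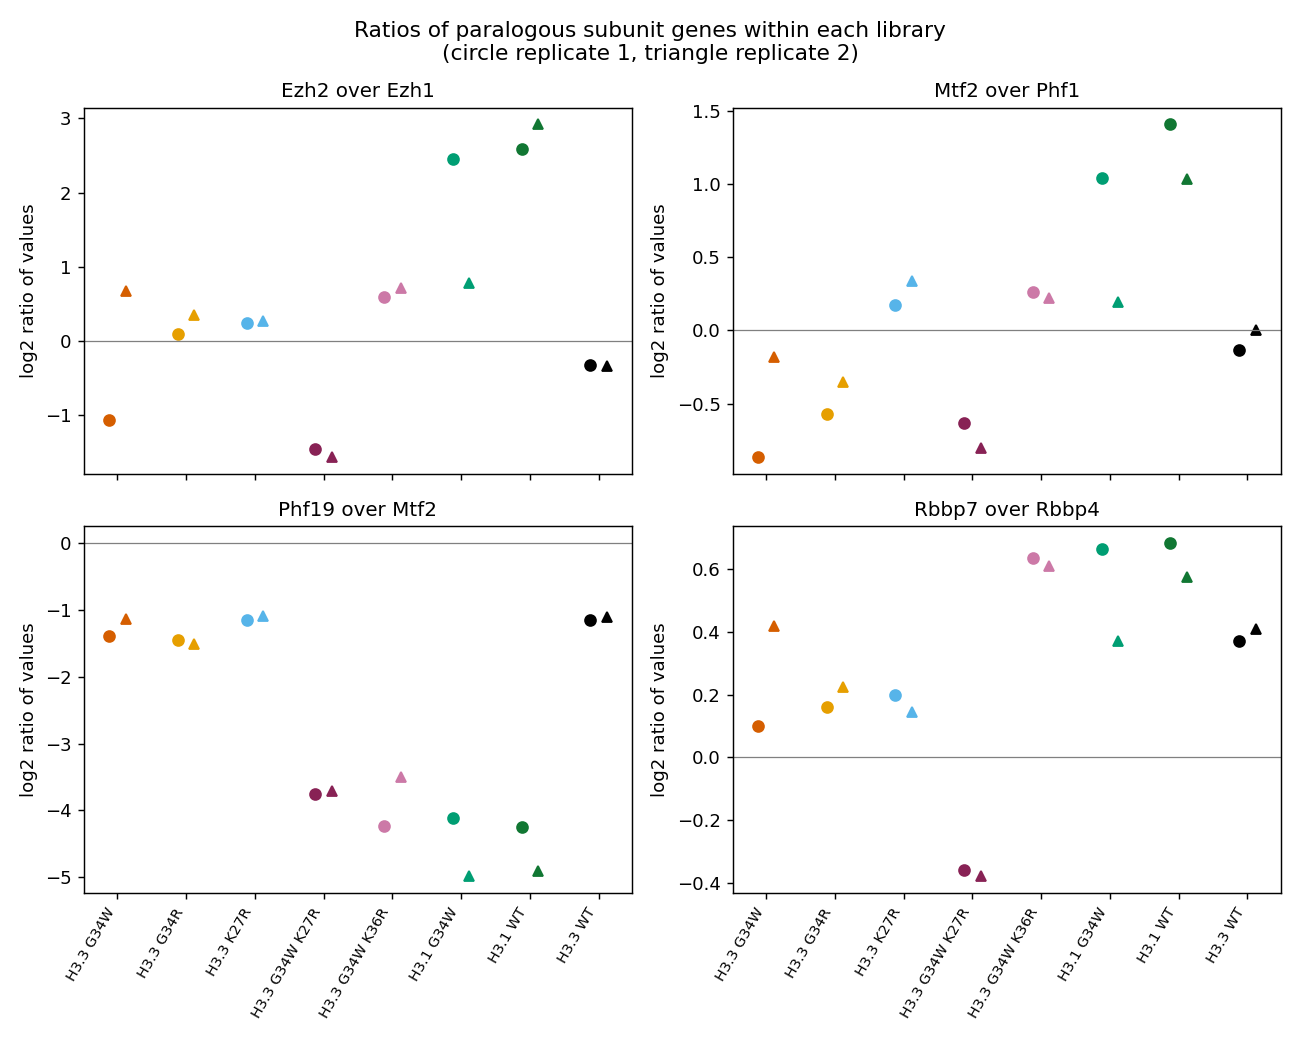
Log2 ratios of the normalized counts of related PRC2 subunits in each library, by transgene group; points are libraries. The Ezh2 to Ezh1 ratio is between -1.57 and -1.45 in both G34W K27R libraries and between 2.59 and 2.92 in both H3.1 WT libraries.

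Of the rest of the core, Suz12, the scaffold subunit, was high in 3 groups. Suz12 had 7737 and 6713 normalized counts with H3.1 WT, against 2537 and 2540 with H3.3 WT. It had 4433 and 4374 with G34W K36R, against 1610 and 2257 with G34W. It had 6379 and 4208 with H3.1 G34W, 2045 and 2027 with G34R, 2665 and 2730 with K27R, and 1842 and 1857 with G34W K27R. The 6 libraries of G34W K36R, H3.1 G34W and H3.1 WT, all at 4208 or more, did not overlap the other 10, all at 2730 or less. They are also the 6 most deeply sequenced libraries, and the part of depth was not tested. Suz12 was higher with H3.1 WT than with H3.3 WT (log2 fold change 1.50 ± 0.25 SE, limma adjusted p = 0.00163) and higher with G34W K36R than with G34W (1.21 ± 0.20, adjusted p = 0.00195), and both calls held in all 16 fits without 1 library. G34W K36R against H3.3 WT gave 0.79 ± 0.25 at an adjusted p of 0.0513, short of the threshold, and 6 of those 16 fits called it.

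Eed, the subunit that reads the methyl mark, was called in no comparison. Its Pearson r to Suz12 was 0.56 over the 16 libraries and -0.07 over the 12 H3.3 libraries. Eed averaged 943 ± 54.5 with G34W K36R (SD, n = 2) and 955 ± 129 with G34W, and the ratio of Suz12 to Eed was 4.90 and 4.45 in the G34W K36R libraries, against 1.86 and 2.16 in the G34W libraries. Its highest values, 1498 and 2046, were in the H3.1 WT libraries, against 1205 and 1244 with H3.3 WT, a difference that was not called (0.52, interval -0.08 to 1.11). Rbbp7 had 7205 and 6968 normalized counts with G34W K27R, the lowest of all libraries, against 11041 and 11156 with H3.3 WT. That difference did not pass the threshold (log2 fold change -0.65 ± 0.23 SE, limma adjusted p = 0.0909), nor did those against G34W (-0.46) or against K27R (-0.49), and each was called in 2 of the 16 fits without 1 library. Rbbp4, its near copy, averaged 9143 ± 121 with G34W K27R and 8469 with H3.3 WT, and the ratio of Rbbp7 to Rbbp4 was 0.781 and 0.769 with G34W K27R, against 1.29 and 1.33 with H3.3 WT.

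The largest changes of the 10 genes were those of Phf19, one of the Polycomb-like subunits. Phf19 had 56.6 and 59.4 normalized counts with G34W K27R and 50.9 and 82.0 with G34W K36R, against 250 and 412 with G34W and 424 and 443 with H3.3 WT. It had 391 and 432 with K27R and 272 and 300 with G34R. It had 62.2 and 30.8 with H3.1 G34W, and 69.7 and 44.0 with H3.1 WT. The 8 libraries of the double mutants and of the H3.1 groups lay at 82.0 or less and the other 8 at 250 or more, with nothing in between. Within the low set the groups overlapped throughout, and within the high set the only pairs of groups without overlap were G34R with K27R, and G34R and G34W with H3.3 WT. Even the lowest library held 40 Phf19 reads, so the low values lie well above the floor. Within the low set, the libraries of G34W K36R, H3.1 G34W and H3.1 WT are also the most deeply sequenced, while those of G34W K27R are not. The part of depth was not tested.

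Phf19 fell with G34W K27R against H3.3 WT (log2 fold change -2.88 ± 0.48 SE, limma adjusted p = 0.00283), against G34W (-2.45 ± 0.39, adjusted p = 0.00142) and against K27R (-2.81 ± 0.39, adjusted p = 7.3e-04). It fell with G34W K36R against H3.3 WT (-2.73 ± 0.48, adjusted p = 0.00463) and against G34W (-2.29 ± 0.39, adjusted p = 0.00211). It was lower with H3.1 WT than with H3.3 WT (-2.94 ± 0.48, adjusted p = 0.00151). These 6 calls held in all 16 fits that left out 1 library. The single changes were not called: G34W gave -0.43 (interval -1.49 to 0.62), G34R -0.60 (-1.66 to 0.46) and K27R -0.07 (-1.13 to 0.98), all against the same H3.3 WT libraries. The interaction compared the effect of G34W in the presence of K27R with its effect in its absence and gave -2.37 ± 0.61 (adjusted p = 0.0425), the only interaction called among the 10 genes where 7.95% of all genes were, with 5.22% of all genes lower. Without replicate 1 of G34W, 3 interactions were called, beside 16.5% of all genes. The Phf19 call was lost in 9 of the 16 fits without 1 library, namely without replicate 2 of G34W or either library of G34R, K27R, G34W K27R or G34W K36R (adjusted p up to 0.136).

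Of the other Polycomb-like genes, Phf1 was called in 2 comparisons and Mtf2 in none. Phf1 had 496 and 645 normalized counts with H3.1 WT, against 1036 and 952 with H3.3 WT, and was lower there (log2 fold change -0.81 ± 0.26 SE, limma adjusted p = 0.0382). It had 1189 and 1361 with G34W K27R, against 773 and 728 with K27R, and was higher there (0.76 ± 0.22, adjusted p = 0.0267). The first call was lost in 10 of the 16 fits without 1 library, namely without either library of G34R, K27R, G34W K27R or G34W K36R or replicate 1 of H3.1 WT or of H3.3 WT (adjusted p up to 0.12). The second was lost without either library of G34W K27R or K27R (up to 0.164). Mtf2 had 1319 and 1324 normalized counts with H3.1 WT, the 2 highest values of the 16, against 945 and 954 with H3.3 WT, a difference of 0.48 ± 0.20 that was not called (adjusted p = 0.0849). The ratio of Mtf2 to Phf1 was 2.66 and 2.05 with H3.1 WT, against 0.912 and 1.0 with H3.3 WT. Jarid2 was called in no comparison. It averaged 317 ± 92.3 with H3.1 WT and 575 with H3.3 WT (-0.89, interval -1.73 to -0.05, adjusted p = 0.0943), and 793 ± 301 with G34W, where the libraries had 1006 and 581.

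**Figure D3:**
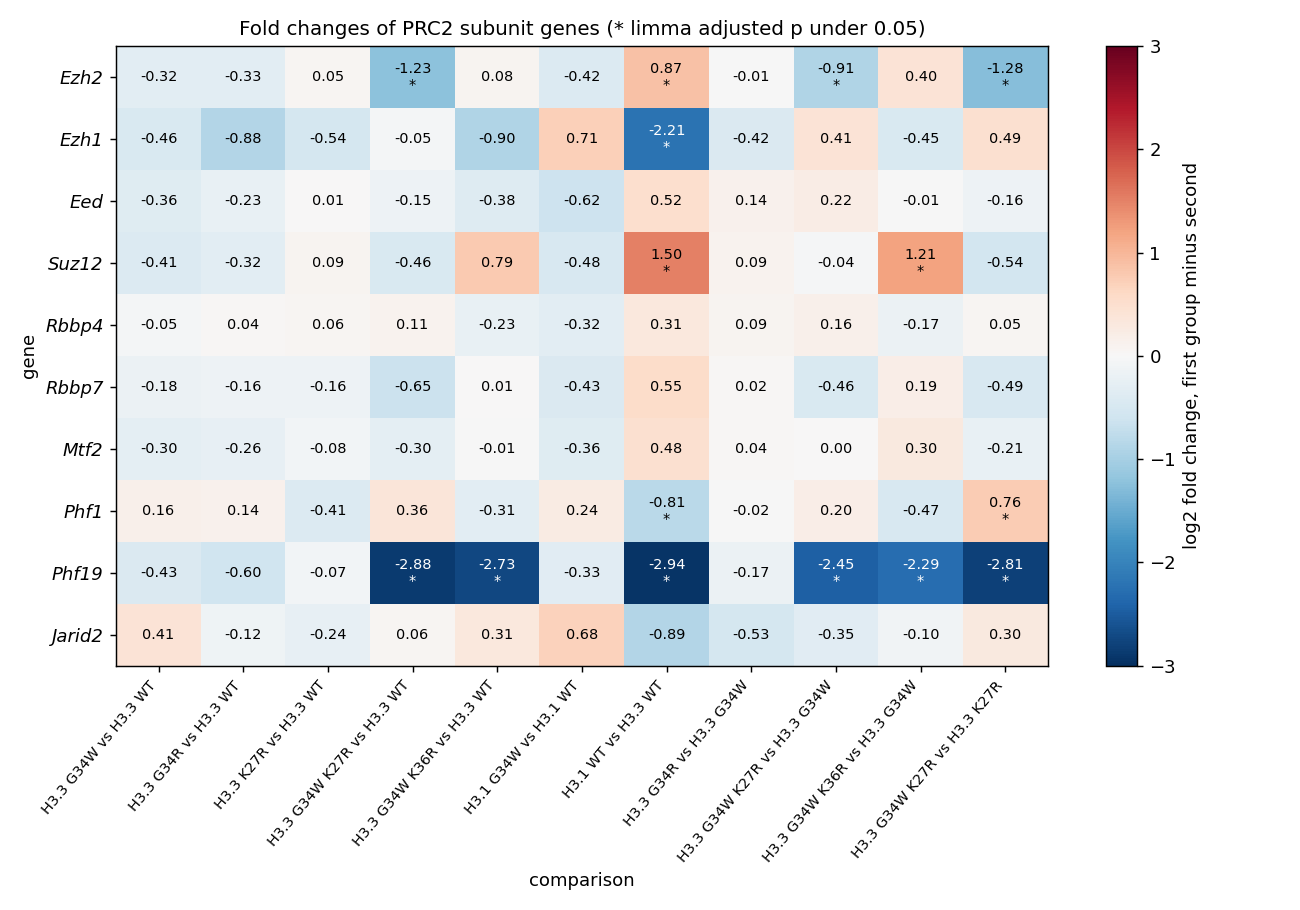
Log2 fold changes of the 10 genes in the comparisons between transgenes, each written as the first group over the second, from the limma fit, with calls at an adjusted p under 0.05 marked. The largest decreases are those of Phf19, between -2.94 and -2.29, in 6 comparisons, and H3.3 G34W against H3.3 WT has no call.

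Read by comparison, the single changes of H3.3 called none of the 10 genes. G34W against H3.3 WT called 0 of 10 where 1.18% of all genes were called (limma, and 0 of 10 at an unadjusted p under 0.05). The share of all genes moved with the libraries used, from 0.395% without either library of K27R to 12% without replicate 2 of G34W, and it was 7.55% with H3.3 WT counted as 2 samples. The count of the 10 stayed at 0 in these fits. The libraries did not overlap for 7 of the 10, beside 54.7% of all genes, and the median log2 fold change of the 10 was -0.31, beside 0.00 for all genes. The intervals for G34W run from -0.97 to 0.33 for Ezh2, from -0.96 to 0.13 for Suz12 and from -0.96 to 0.23 for Eed, so decreases close to 2-fold are within them. G34R against H3.3 WT called 0 of 10 (2.72% of all genes), K27R against H3.3 WT 0 of 10 (2.75%), and G34R against G34W 0 of 10 (0.845%), each with 0 at an unadjusted p under 0.05. These shares of all genes are for adjusted calls. How many of all genes had an unadjusted p under 0.05 was not computed, so the unadjusted counts have no background here. For G34R the Ezh2 value was -0.33 (interval -0.97 to 0.32) and the Suz12 value -0.32 (-0.87 to 0.23).

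The double mutants called more, as they did over all genes. G34W K27R against H3.3 WT called 2 of 10, Ezh2 and Phf19, both lower, beside 14.3% of all genes (7.91% lower). Against G34W it again called these 2, both lower, beside 21.6% (12.4% lower), and against K27R it called 3, Ezh2 and Phf19 lower and Phf1 higher, beside 26.2% (14.5% lower and 11.7% higher). Suz12 was not called in any of them, with -0.46 (interval -1.0 to 0.09) against H3.3 WT and -0.54 (-0.99 to -0.10) against K27R. G34W K36R against H3.3 WT called 1 of 10, Phf19, lower, beside 17.1% (8.82% lower), and against G34W it called 2, Phf19 lower and Suz12 higher, beside 30.6% (16.2% lower and 14.4% higher). Leaving out 1 library moved some of these counts: to 1 for G34W K27R against H3.3 WT without either G34W K27R library (6.98% and 6.99% of all genes). Against G34W it was 1 without either of those (10.2%) and without G34W replicate 2 (26.1%). It was 5 for G34W K27R against K27R without either H3.1 G34W library (33.4% of all genes), and 5 for G34W K36R against G34W without G34W replicate 2 (36.3%). G34W K36R against H3.3 WT called 2 without either library of G34W, H3.1 G34W or H3.1 WT (23.6% to 26.3%), and also 2 with H3.3 WT counted as 2 samples (33.6%). The comparisons with H3.3 WT share its libraries, those with G34W share the G34W libraries, and all values for G34W K27R share its libraries.

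H3.1 WT against H3.3 WT, which differ in the histone type of the transgene, called 5 of 10 beside 33.4% of all genes. Ezh2 and Suz12 were higher, beside 16.3% of all genes, and Ezh1, Phf1 and Phf19 were lower, beside 17%. The count was 3 without any 1 library of G34R, K27R, G34W K27R or G34W K36R (27.7% to 27.8% of all genes) and 8 with H3.3 WT counted as 2 samples (49.8%). All 10 genes had libraries that did not overlap, beside 77.2% of all genes. H3.1 G34W against H3.1 WT called 0 of 10 and 0 of all genes (limma, background 0%), with 4 of 10 at an unadjusted p under 0.05. These 4 were Eed (-0.62), Suz12 (-0.48), Rbbp7 (-0.43) and Mtf2 (-0.36), all lower in H3.1 G34W, at limma adjusted p of 0.302 to 0.309. The 0% is for adjusted calls. The share of all genes at an unadjusted p under 0.05 was not computed, so whether 4 of 10 exceeds it is not known. Without replicate 1 of H3.1 G34W, 7 of 10 were called, beside 19.5% of all genes, and without replicate 1 of H3.1 WT 2 were, beside 17.9%. That replicate of H3.1 G34W had 649 normalized counts of Ezh1 and 3562 of Ezh2, close to the 597 and 3582 of H3.1 WT replicate 1. Replicate 2 of H3.1 G34W had 1243 of Ezh1 and 2144 of Ezh2. The effect of G34W in H3.3 was not shown to differ from that in H3.1 for any of the 10 genes (0 of 10 interactions, beside 0.197% of all genes, limma, and 0 of 10 at an unadjusted p under 0.05), with Ezh1 at -1.17 ± 0.54 (adjusted p = 0.481).

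Genes of the cell cycle were low in the group where Ezh2 was lowest. In G34W K27R against H3.3 WT, 24 of 33 S phase genes and 25 of 25 genes of G2 and M phase were called lower, beside 7.91% of all genes. Their median log2 fold changes were -1.80 and -3.93, beside -0.01 for all genes. Mki67, a marker of dividing cells, had 540 and 505 normalized counts with G34W K27R, against 12722 and 12782 with H3.3 WT. Cdkn2a and Cdkn2b, CDK inhibitor genes that PRC2 is known to repress, averaged 442 ± 20.9 and 778 ± 26.9 with G34W K27R (SD, n = 2), while Cdkn2a had 0.968 and 0 and Cdkn2b 0 and 0 with H3.3 WT. In the G34W group, replicate 1 had 1304 of Ezh2 and 7037 of Mki67, and replicate 2 had 2005 of Ezh2 and 17157 of Mki67. In the H3.1 WT group the order differed between the genes: replicate 1 had 3582 of Ezh2 and 28677 of Mki67, and replicate 2 had 3812 of Ezh2 and 10296 of Mki67. Over the 16 libraries, Pearson r between the log2 value of Ezh2 and the median of the S phase genes was 0.88, and over the 12 H3.3 libraries 0.90. For Rbbp7 these were 0.87 and 0.88, for Suz12 0.56 and 0.31, and for Phf19 0.32 and 0.82. On the S phase median the G34W K27R libraries lay at -1.41 and -1.53 and the other H3.3 libraries between -0.45 and 0.45. That group therefore weighs heavily in the r over the 12 H3.3 libraries, and r without it was not computed. The libraries form 8 pairs and share 1 normalization, so these correlations are descriptions. The part of the cell cycle in the changes of Ezh2 was not tested.

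**Figure D4:**
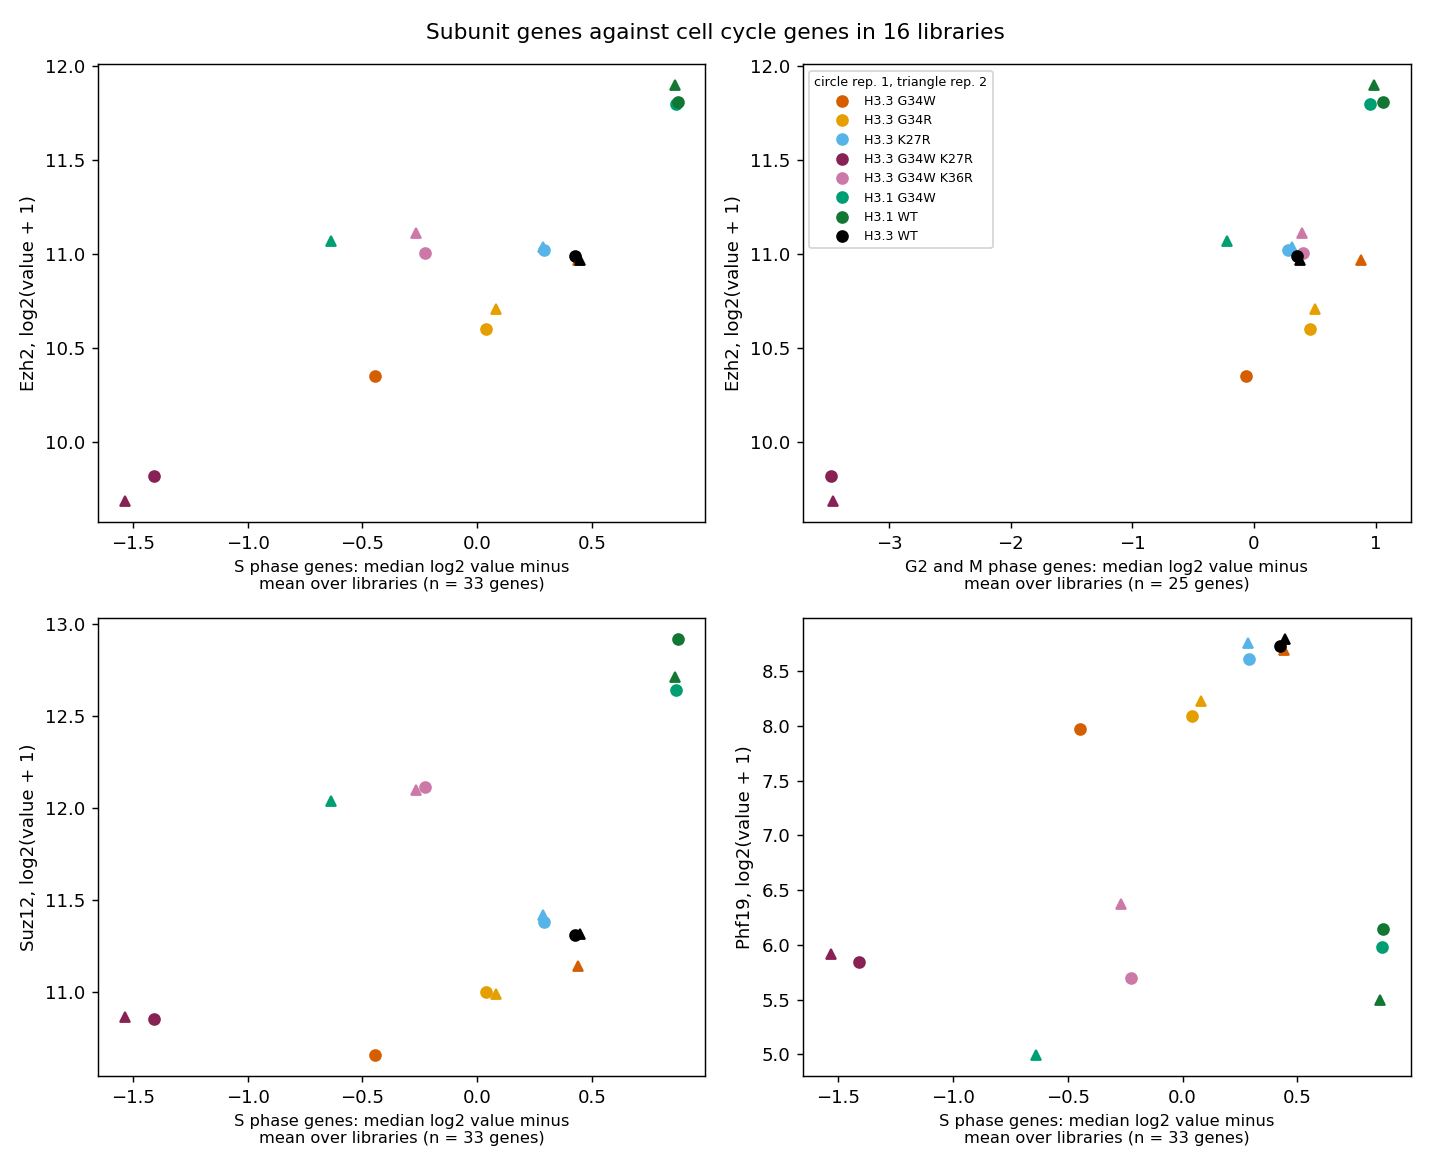
Levels of PRC2 subunit genes against the median level of 33 S phase genes in each of the 16 libraries, on log2 scales, for Ezh2, Suz12 and Phf19; the upper right panel sets Ezh2 against 25 genes of G2 and M phase. Colours are transgene groups, circles replicate 1 and triangles replicate 2. The G34W K27R libraries lie lowest on the S phase axis, at -1.53 and -1.41, and have the lowest Ezh2 values.

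Among the 10 genes themselves the patterns over libraries were unequal. Ezh2 and Rbbp7 had a Pearson r of 0.96 over the 16 libraries (0.96 over the 12 H3.3 libraries), Ezh2 and Suz12 0.86 (0.68), and Suz12 and Mtf2 0.91 (0.76). Phf1 ran against them, with r of -0.91 to Suz12 (-0.80) and -0.90 to Ezh2 (-0.82). Eed and Jarid2 had r of -0.93 (-0.81). Phf19 had r of -0.12 to Ezh2 over 16 libraries and 0.53 over the 12. As before, the points are 8 pairs of libraries under 1 normalization.

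Outside the complex, among 10631 genes with a mean of at least 50, the genes whose log2 values were most like Ezh2 over the 16 libraries were Hn1l (r = 0.98), Srsf1 (0.98) and Hells (0.98). Kpna3 (0.997) and Gmps (0.99) were among those most like Suz12. Those most like Ezh1 were Foxo4 (0.98), N4bp2l1 (0.97) and Rhbdl3 (0.97), and those most like Phf19 were Ces2g (0.97), Hr (0.96) and Slpi (0.96). Rbbp7 was most like Cops3, Srsf1 and Hmgn5 (0.98 each), Mtf2 most like Nap1l1, Tcp1 and Tdp2 (0.96 to 0.97), and Phf1 most like Fam193b, Gpr162 and Stx5a (0.97 each).

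Of 5 further genes for accessory subunits and regulators of PRC2, 4 passed the minimum mean, and AU022751 was listed at 0 in every library. Aebp2, which stabilises the complex on chromatin, averaged 4944 ± 141 with G34W K36R (SD, n = 2), 3337 ± 370 with G34W and 3566 with H3.3 WT. It was called higher with G34W K36R against H3.3 WT (log2 fold change 0.47 ± 0.14 SE) and against G34W (0.57 ± 0.11), and with H3.1 WT against H3.3 WT (0.78 ± 0.14). The G34W K36R and H3.1 WT libraries are also among the most deeply sequenced, and the part of depth was not tested. In G34W K36R against G34W, Lcorl was also higher (1.08 ± 0.27) and E130012A19Rik lower (-1.22 ± 0.37), so 3 of 4 were called, beside 30.6% of all genes. Lcorl was lower with G34W K27R than with K27R (-1.09 ± 0.27), the only call of the 4 in that comparison. None of the 4 was called with G34W, G34R, K27R or G34W K27R against H3.3 WT. Kdm6b, a demethylase that removes the mark, had 2404 and 2341 normalized counts with G34W K36R, against 868 and 908 with H3.3 WT (1.42 ± 0.33, limma adjusted p = 0.018). H3.3 WT had the lowest Kdm6b mean of the 8 groups (888), and H3.1 G34W had 1831 and 2904. No other comparison called Kdm6b, that of G34W K36R against G34W included. Kdm6a, the other tested demethylase of that mark, was called in no comparison.

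Of 30 textbook target genes of PRC2 in the table, 18 passed the minimum mean, and calls went both ways. The others had little or no RNA here, so the shares and medians that follow cover only targets that were expressed. Wnt11, among the 18, had 362 normalized counts in replicate 1 of G34W and 34.1 or less in every other library. G34W against H3.3 WT called 3 of 18, all higher (Cdkn2a, Cdkn2b and Wnt5a), beside 1.18% of all genes. G34R called 2, both higher (Cdkn2a and Cdkn2b), beside 2.72%, and K27R 2 higher (the same Cdkn2 genes) and Sox9 lower, beside 2.75%. G34W K27R against H3.3 WT called 4 higher (these Cdkn2 genes, Bmp4 and Wnt5a) and 1 lower (Lhx9), beside 14.3%. The Cdkn2 calls rest on the same H3.3 WT libraries, where Cdkn2a had 0.968 and 0 and Cdkn2b 0 and 0 normalized counts. All other groups were above these values, with the lowest means, 5.10 for Cdkn2a and 3.69 for Cdkn2b, in H3.1 WT. These calls are therefore not independent of each other. G34W K36R called 5 higher and 4 lower, beside 17.1%, and H3.1 WT called 5 higher and 5 lower, beside 33.4%, both against H3.3 WT. The median log2 fold changes of the 18 were 0.12, 0.02, -0.19, 0.29, 0.24 and -0.35 in these 6 comparisons, beside -0.02 to 0.00 for all genes. They are the same with Cdkn2a and Cdkn2b set to their bounds against a floor of 3 reads per library. A median does not depend on how far these genes lie above it, so this sameness is no check. Wnt5a, a secreted Wnt ligand, had 1084 and 1066 normalized counts with G34W K36R and 634 and 503 with G34W, against 236 and 241 with H3.3 WT. Lhx9, a homeobox gene, had 1.96 and 0.882 with G34W K36R and 17.7 and 20.4 with G34W K27R, against 90.0 and 95.9 with H3.3 WT. Sox9, a transcription factor of cartilage, had 4693 and 4472 with K27R and 3307 and 3009 with H3.1 WT, against 9338 and 9433 with H3.3 WT.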

How the data were processed

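The deposited table holds 1 signal per gene and library for 20325 genes. Per the labels and the submitters' processing notes, the authors' counts are RSEM estimates (version 1.2.4, build mm9). The deposited table is named as median-normalized; aligner, annotation and filters are not given in the sources used here. Because 41.7% to 47.6% of values lay within 0.01 of a whole read, whole counts could not be recovered and no count test was run. A second deposited table with the same values for fewer genes was used only as a check. Values were tested as log2(value + 1) with limma 3.58.1 in R 4.3.3 (trend and robust, statmod 1.5.0), two-sided, in 1 fit of all groups over genes with a mean of at least 10, with Benjamini-Hochberg adjustment over 12670 genes. The H3.3 WT libraries entered as their mean, which left 15 samples and 7 residual degrees of freedom. The fit was also run on simulated data with the same spread in every group. The spread of these libraries is unequal between groups, and that run does not cover this. Tests were an F test, 11 comparisons and 2 interactions. The settings varied were the pseudocount (0.5 and 5), the filter (none, or a mean of at least 50), TMM rescaling computed without count weights, H3.3 WT counted as 2 samples, 5 close pairs as 1 sample each, eBayes without trend and robust, a block for the replicate number (with H3.3 WT as 2 samples), and each library left out in turn. Members and lists were chosen with earlier results of these data known. Named were the 10 genes, the 3 genes most like each one called by the F test (mean of at least 50, provisional symbols left out), called list genes, and H3f3a, H3f3b, Mki67, Cdkn2a and Cdkn2b. One gene that this rule names is not reported here. Lengths come from GENCODE and promoters from RefSeq tables.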

Additional observations from a re-analysis of the deposited data

Results flagged for a closer look

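The interaction of G34W with K27R for Phf19 was flagged because a test of the difference between effects passed the threshold: the effect of G34W on the log2 scale was lower by 2.37 where K27R was present than where it was absent (interaction -2.37 ± 0.61 SE, limma adjusted p = 0.0425). Phf19 averaged 58.0 ± 2.0 normalized counts with G34W K27R and 412 ± 29.2 with K27R (SD, n = 2 each), and 331 ± 115 with G34W and 433 with H3.3 WT. The interval of the interaction was -3.74 to -1.01, and the call was lost in 9 of the 16 fits that left out 1 library.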

How the results depend on the processing

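All 16 called fold changes of the 10 genes kept their direction under every alternative run. All 16 stayed called with a pseudocount of 0.5 or 5, a minimum mean of 50, TMM rescaling, H3.3 WT counted as 2 samples and the replicate block, and 15 with no filter and with eBayes without trend and robust, where Ezh2 in H3.1 WT against H3.3 WT was at an adjusted p of 0.0541 and 0.0557. When the 5 most similar pairs entered as 1 sample each, 1 of the 16 calls was kept (Phf19 in H3.1 WT against H3.3 WT). The F test then kept only Suz12 and Phf19. That fit held 11 samples and 3 residual degrees of freedom. Of all genes, the F test then called 8.13%, beside 66.6% in the report, and H3.1 WT against H3.3 WT 4.9%, beside 33.4%. The lost calls are therefore not particular to the 10 genes. The replicate block was fitted with H3.3 WT as 2 samples. In G34W K36R against H3.3 WT, 2 members were called under TMM rescaling (17.1% of all genes), with H3.3 WT as 2 samples (33.6%) and with the block (31.5%). In H3.1 WT against H3.3 WT, 8 were called with H3.3 WT as 2 samples (49.8% of all genes) and with the block (47.6%), beside 5 of 10 and 33.4% in the report. The cause was not tested. Against the fit with H3.3 WT as 2 samples, the block changed no count of members by over 1.5 times; the replicate numbers were not taken as pairs, since over 28 pairs of groups the correlation of their deviations was -0.265 to 0.0598. Leaving out 1 library gave 7 to 9 members called in the F test, 1 to 3 in G34W K27R against H3.3 WT, 1 to 2 in G34W K36R against H3.3 WT, 0 to 7 in H3.1 G34W against H3.1 WT, 3 to 7 in H3.1 WT against H3.3 WT, 1 to 3 in G34W K27R against G34W, 2 to 5 in G34W K36R against G34W, 2 to 5 in G34W K27R against K27R, 0 to 3 in the interaction with K27R, and 0 to 0 in the others. The share of all genes called also moved in these fits, so these ranges do not describe the 10 genes alone. Ezh1 in G34W against H3.3 WT turned to 0.10 without replicate 2 of H3.3 G34W and was -1.02 without replicate 1. Where a group was left with 1 library, that library was assumed to vary like the other groups. With 2 libraries a group the intervals are wide, and a gene that was not called may have changed by any amount within its interval.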
